A study of Caenorhabditis elegans with 2 samples.

Results

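Genes for transcription factors that set cell fate in the worm embryo were examined for recovery with ODD-2, which belongs to the Odd-skipped group of zinc-finger regulators. The set holds 54 regulators of gut, pharynx, muscle, epidermis, neurons and body axis out of 19973 nuclear protein-coding genes. Membership goes by gene name, but the list was drawn up with earlier results of these data known. Whole Caenorhabditis elegans of the late embryonic stage, hermaphrodite and of unknown age, came from strain OP405 with the genotype unc-119(tm4063) III; wgIs405. Its transgene encodes ODD-2 with GFP and FLAG at its C terminus, and chromatin sheared by sonication from whole animals was precipitated with an anti-GFP antibody and sequenced (ChIP-seq). There is 1 group with 2 biological replicates, so the values below give places of candidate signal and not how a treatment changed it. The promoter that drives the transgene is not given in the labels, and reads from the transgene and from the native odd-2 gene cannot be told apart. Whole embryos mix all cell types, and no library of untagged worms was analysed here.

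The authors deposited 30000 candidate regions for either replicate and as many for the pool of both, each with a signal computed against a control. The pooled list is labelled as peaks and background for input to the IDR step described next. A candidate region can therefore be background. The 260 peaks that passed the irreproducible discovery rate (IDR) step are called IDR peaks, and 237 of them are nuclear. That step keeps regions whose ranks recur, either between replicates or between random divisions of the pooled reads. The files do not say which gave these peaks. With summits matched within 100 bp, 11 nuclear IDR peaks were found in replicate 1 only and 8 in replicate 2 only. An IDR peak thus need not have a matching summit in both replicates. A region belonged to a gene when its summit lay in the gene body or up to 5000 bp upstream of the annotated 5' end. In the compact worm genome such windows often reach neighbouring genes, so a region can count for several of them. Signals run from 24.6 to 772 in the pooled file, from 13.2 to 371 in replicate 1 and from 12.7 to 458 in replicate 2, and levels are compared within a file only. Among nuclear regions, which alone were assigned to genes, the highest signals are 341, 238 and 178 in the same order. Read depth is unknown, since the files give no read numbers, and a gene without a region is only known to have none among the 30000 deposited. Positions are 1-based on build ce11.

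Odd-skipped proteins act in the formation of the embryonic gut of several animals, and in C. elegans odd-1 and odd-2 are known for gut development. The worm gut descends from the single E blastomere, where the GATA factors END-1 and END-3 start the endoderm programme and ELT-7 and ELT-2 carry it on. PHA-4, the FoxA factor, specifies the pharynx, HLH-1, the MyoD factor, the body wall muscle, and LIN-26 and ELT-1 the epidermis. Hox genes and the caudal-type gene pal-1 give cells their position along the body axis.

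An IDR peak lay in the window of 3 of the 54 genes, against 2.11% of other protein-coding genes. There were 6 such peaks, with 4 in hlh-1, 1 in pal-1 and 1 upstream of odd-2. In replicate 1 the 4 hlh-1 summits lie in a single interval. The stretches of 101 bp centred on these 6 summits follow, because they are the places on which the results at single genes turn. They are read from the RefSeq copy of the same assembly, plus strand, 5' to 3', and capitals mark TGATAA, the word of GATA factors, or ACAGTAGC, a word of the Odd family, on either strand.
hlh-1 at chrII:4521009-4521109: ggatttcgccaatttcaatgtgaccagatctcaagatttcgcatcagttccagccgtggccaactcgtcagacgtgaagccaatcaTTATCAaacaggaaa
hlh-1 at chrII:4521218-4521318: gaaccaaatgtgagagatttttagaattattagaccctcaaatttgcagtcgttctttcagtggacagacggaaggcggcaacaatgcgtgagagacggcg
hlh-1 at chrII:4521868-4521968: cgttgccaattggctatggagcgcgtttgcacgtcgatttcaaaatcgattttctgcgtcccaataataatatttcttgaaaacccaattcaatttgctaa
hlh-1 at chrII:4522108-4522208: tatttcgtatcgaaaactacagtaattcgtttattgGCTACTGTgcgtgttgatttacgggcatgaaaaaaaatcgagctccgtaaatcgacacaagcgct
pal-1 at chrIII:4805500-4805600: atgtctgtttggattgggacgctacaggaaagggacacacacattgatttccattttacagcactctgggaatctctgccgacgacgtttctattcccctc
odd-2 at chrX:6164783-6164883: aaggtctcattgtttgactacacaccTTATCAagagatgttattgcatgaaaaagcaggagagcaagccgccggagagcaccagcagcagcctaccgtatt
ACAGTAGC stands, as its reverse complement GCTACTGT, at the last of the hlh-1 summits, and TGATAA, as TTATCA, at the first hlh-1 summit and at the odd-2 summit. The pal-1 stretch holds neither word. A match is a description of the letters and not evidence of a site.

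In shares with candidate regions, the 54 genes lay within a few percentage points of other genes of the same size. IDR peaks were found at 3 of 54 genes (5.56%), against 2.11% of the 19919 other protein-coding genes. Among genes whose window was within 20% of a member's length, averaged over the members, the share was 2.35%, and it was 1.33% once regions near short RNA genes were left out, which left the members at 3. Within gene bodies alone, 2 of 54 genes (3.70%) held an IDR peak, against 0.603%. A pooled candidate region lay in the window of 51 of 54 genes (94.4%), against 87.5% of other genes and 91.0% of those of like length. A region found in both replicates was one whose pooled summit had a summit of each replicate within 100 bp. One lay at 28 of 54 genes (51.9%), against 50.2% of other genes and 55.5% of those of like length. Presence in a single replicate is judged below by the same rule, so regions with summits further apart can still overlap. No test was made on these shares, and with 3 genes a single gene moves the share of IDR peaks by much of its value. Because the list was chosen with earlier results of these data known, its share of IDR peaks is a description only.

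The levels differed little from those of like-length genes. Medians of the highest signal were taken over genes with a region. In the pooled file the members' median was 38.1, against 36.1 for genes of like length. In replicate 1 it was 18.8 against 19.99, and in replicate 2 it was 21.3 against 19.3. The members' median thus lay below that of like-length genes in replicate 1 and above it in replicate 2 and in the pooled file. A region was present at 51 of 54 genes in replicate 1 (94.4%, against 91.1%) and at 48 in replicate 2 (88.9%, against 91.5%). Windows of the 54 genes held a median of 3.06 pooled regions per 10 kb, against 2.95 for genes of like length. The replicates ranked the genes differently: over the 46 genes with a region in each replicate's file, Spearman's rho between their highest signals was 0.10, a description over genes that share the same pair of libraries. In each file the 54 genes were spread over the whole range of their like-length genes, and 6 genes in the pooled file, 6 in replicate 1 and 2 in replicate 2 stood above 95% of them. These marks are percentiles of like-length genes, so genes of any list can stand above them, and the counts are a description only. Above 90% of them in both replicates stood 1 gene, odd-2, whose sequence the transgene also carries. The share of other genes that stand so high in both replicates was not computed.

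**Figure D1:**
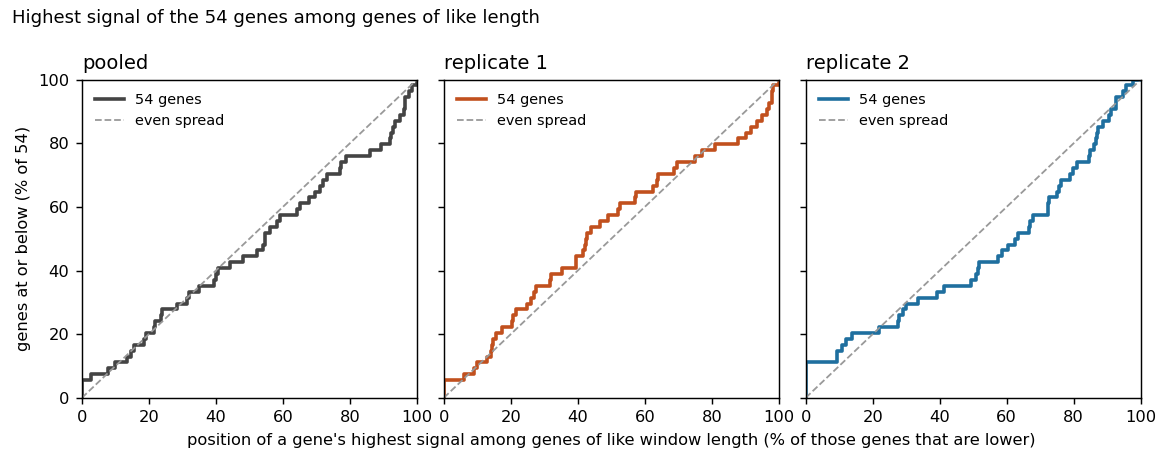
Position of the highest signal of each of the 54 genes among other protein-coding genes of like window length, as a cumulative share of the 54 genes (y axis, %) against the percentage of like-length genes with a lower highest signal (x axis), for the pooled file and each replicate; genes with no region count as lowest. The lines run near the dashed diagonal of an even spread, with 23 of 54 genes above the middle of their like-length genes in replicate 1, 34 in replicate 2 and 30 in the pooled file.

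**Figure D2:**
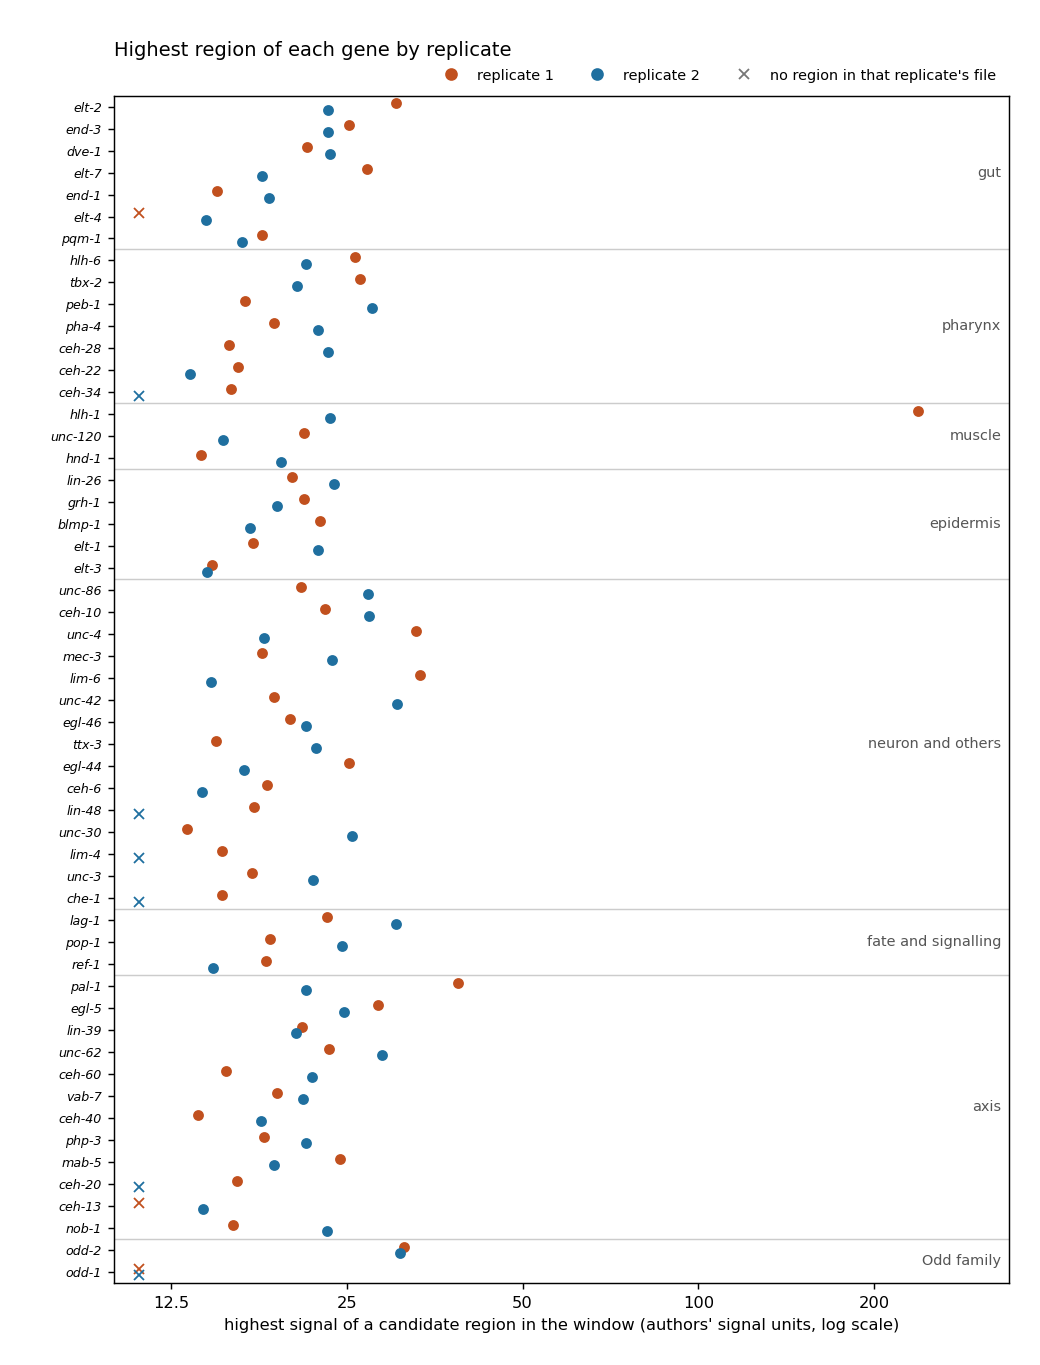
Highest signal of a candidate region in the window of each of the 54 genes (x axis, log scale, authors' signal units) in replicate 1 and replicate 2, grouped by role and ordered within a role by the pooled signal; a cross marks no region in that file, and the place of a gene's highest region may differ between replicates. hlh-1 stands apart at 238 in replicate 1 but not in replicate 2, where it had 23.4; the scales of the files differ.

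Among the gut genes, 7 of 7 had a candidate region, against 86.2% of genes of like length, and 0 of 7 had an IDR peak, against 1.95%. The highest was upstream of elt-2 (WBGene00001250), which encodes the GATA factor that maintains the intestine. Its region on chromosome X, 3519 bp upstream of the 5' end, had a pooled signal of 51.4, with 30.3 in replicate 1 and 23.2 in replicate 2, and the elt-2 window stood above 96.1% of like-length genes. The region lay nearer to the 5' end of C39B10.7, at 848 bp. A weaker region in an elt-2 intron, 315 bp from its own 5' end, had 35.1 pooled, 15.5 in replicate 1 and 17.5 in replicate 2. end-3 (WBGene00001311), an endoderm-initiating GATA gene, had 46.3 pooled, 25.2 in replicate 1 and 17.7 in replicate 2. That summit lay 4028 bp upstream and nearer to ddx-17. A second end-3 region, 252 bp upstream of its own 5' end, had 42.9 pooled, 13.9 in replicate 1 and 23.2 in replicate 2. dve-1, a homeobox gene of the SATB type, had 43.5 pooled in an intron, with 18.1 in replicate 1 and 23.4 in replicate 2. end-1, the partner gene of end-3, had 34.04 pooled, 15.0 in replicate 1 and 18.4 in replicate 2. The highest region of elt-7, another intestinal GATA gene, was in an exon and was found in replicate 1 only (27.1), with 38.6 in the pooled file. elt-4, a small GATA gene, and pqm-1, a zinc-finger gene, had pooled signals of 28.4 and 27.4 at summits with no counterpart in either replicate. Regions found in both replicates lay at 4 of the 7 genes, against 47.3% of genes of like length.

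The 7 pharynx genes had a median highest pooled signal of 31.1, against 36.1 for genes of like length. hlh-6, a gene for a bHLH factor of the pharyngeal glands, led with 46.8 pooled, 25.9 in replicate 1 and 20.6 in replicate 2, at a summit 4762 bp upstream and nearer to hal-3. tbx-2, a T-box gene, had 38.9 pooled, 26.4 in replicate 1 and 12.8 in replicate 2. The other 5 genes had highest pooled signals from 27.7 to 31.7, and in none of them was the highest region found in both replicates. These were peb-1, with 31.7, pha-4, with 31.1, ceh-28, with 30.4, the NK-2 homeobox gene ceh-22, with 29.6, and the Six-family gene ceh-34, with 27.7. pha-4 (WBGene00004013), the organ's master regulator, stood above 18.5% of its like-length genes. Regions found in both replicates lay at 2 of 7 genes (28.6%), against 55.6% of genes of like length, a difference on 7 genes that was not tested.

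The muscle gene hlh-1 had the strongest regions of the set. hlh-1 (WBGene00001948; II, 4518574 to 4522528, plus strand) held 4 IDR peaks in the 3' part of its body. The strongest had its summit in an exon, 2485 bp from the 5' end, with a pooled signal of 212 (II, 4520932 to 4521548). A summit 3344 bp from the 5' end, in an intron, had 123, and another 3584 bp from it, also in an intron, had 121. A further summit in an exon, 2694 bp from the 5' end, had 77.2. All 4 summits lay nearer to the 5' end of B0304.4, at 2163, 1304, 1064 and 1954 bp in that order. Replicate 1 had 238, 138, 123 and 56.2 at these summits, in the order given, and replicate 2 had no region within 100 bp of any of them. The value of 238 was the highest of all 29976 nuclear regions of replicate 1, and the other 2 strong summits ranked 4 and 7 there. Of the 10 strongest nuclear regions of replicate 1, 3 had no counterpart in replicate 2, and all 3 were these; of the 10 strongest of replicate 2, 0 lacked a counterpart in replicate 1. Over the genome 11 nuclear IDR peaks were found in replicate 1 only, and 4 of them were in hlh-1, while 8 were found in replicate 2 only, and 0 of those were in hlh-1. In replicate 1 the hlh-1 summits all lie in a single interval, II, 4520705 to 4522380. These counts therefore take summits of the same interval as separate regions.

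In replicate 2 the body of hlh-1 held 1 region, with a signal of 23.4 at rank 2355. It lay 71 bp from a weaker pooled summit 2911 bp from the 5' end, which had 56.6 in the pooled file and 18.8 in replicate 1. This was the only hlh-1 region found in both replicates. Just upstream of the gene, 468 bp from its 5' end, a region of 30.1 pooled and 25.1 in replicate 1 had no counterpart in replicate 2. Within 100 bp, the 4 IDR peaks of hlh-1 thus had counterparts in replicate 1 alone. The replicate 2 region, at 4521254 to 4521573, did overlap the interval of the exon peaks, 4520932 to 4521548. Its summit lay 146 bp from the summit at 2694 bp. Why the replicates differ was not tested. unc-120, the gene for an SRF-type muscle factor, had 38.1 pooled, 21.1 in replicate 1 and 15.3 in replicate 2 at a summit 1624 bp upstream. hnd-1, a bHLH muscle gene, had no pooled region, though a region of 14.1 lay in its window in replicate 1 and one of 19.3 in replicate 2.

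**Figure D3:**
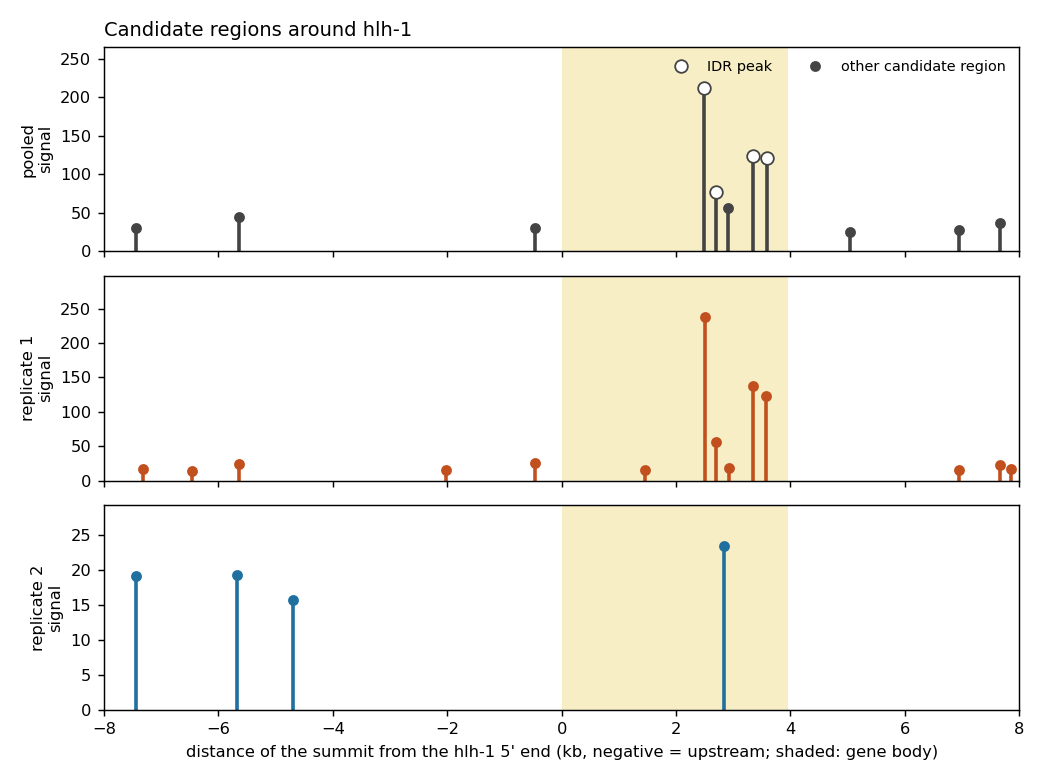
Candidate regions around hlh-1 in the pooled file, replicate 1 and replicate 2, each as a line at its summit (x axis, kb from the 5' end; y axis, signal, with its own scale in each panel); open circles mark IDR peaks and the shading the gene body. The cluster of strong regions inside the gene reaches 238 in replicate 1, while the single region there in replicate 2 has 23.4.

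Among the 5 epidermal genes, lin-26, a zinc-finger gene needed for epidermal fate, was highest with 46.4 pooled, found at that place in replicate 1 only (20.1). grh-1, the Grainyhead gene, had 40.6 pooled, 20.5 in replicate 1 and 19.0 in replicate 2 in an intron. blmp-1, a Blimp-1-type zinc-finger gene, had 39.7 pooled, 19.5 in replicate 1 and 17.0 in replicate 2, at 116 bp upstream of its own 5' end. elt-1, the GATA gene that starts epidermal fate, had 36.9 pooled, with 15.5 in replicate 1 and 22.3 in replicate 2. elt-3, a later epidermal GATA gene, had no pooled region, and at most 14.7 in replicate 1 and 14.4 in replicate 2. No epidermal gene stood above 95% of its like-length genes in any file.

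The 15 genes of neurons and other cell types ran from 24.7 to 54.8 in the pooled file, and none held an IDR peak. unc-86 (WBGene00006818), a POU homeobox gene of many sensory neurons, led with 54.8 pooled, 20.2 in replicate 1 and 27.2 in replicate 2. That summit lay 1896 bp upstream of unc-86 and 13 bp from the 5' end of its neighbour C30A5.16. A weaker region 240 bp upstream of unc-86 had 34.4 pooled, 20.8 in replicate 1 and 14.4 in replicate 2. ceh-10, a homeobox gene of interneurons, had 51.6 pooled, 22.97 in replicate 1 and 27.3 in replicate 2, in an exon 628 bp from its own 5' end. unc-4, a homeobox gene of motor neurons, had 49.5 pooled, 32.8 in replicate 1 and 16.4 in replicate 2, at 2339 bp upstream. Each of these 3 highest regions was found in both replicates, but with unequal ranks among all nuclear regions. ceh-10 ranked 3198 in replicate 1 and 787 in replicate 2, and unc-86 ranked 6456 and 799. unc-4 ranked 283 in replicate 1 and 13971 in replicate 2.

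mec-3, the LIM homeobox gene of touch neurons, had 43.4 pooled, 17.2 in replicate 1 and 23.6 in replicate 2. egl-46, a zinc-finger gene that acts with egl-44 in neurons, had 39.7 pooled, 19.97 in replicate 1 and 21.3 in replicate 2, at 974 bp upstream. egl-44, the TEAD gene, had 35.4, 17.4 and 14.4 in the pooled file, replicate 1 and replicate 2. ceh-6, a POU homeobox gene, had 33.8, 18.3 and 14.1 in the same order. The highest region of lim-6, a LIM homeobox gene, had 33.3 in replicate 1, at rank 261, and no counterpart in replicate 2. That of unc-42, a homeobox gene, had 30.4 in replicate 2, at rank 396, and no counterpart in replicate 1. ttx-3, lin-48, unc-30, lim-4, unc-3 and che-1 had highest pooled signals from 24.7 to 35.5, none of which was found in both replicates. che-1, the zinc-finger gene of the ASE taste neurons, was lowest.

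Of the genes for fate decisions and signalling, lag-1, the CSL factor of Notch signalling, held 11 pooled regions in its window of 20249 bp, the longest of the set. Its highest had 49.6 pooled, 19.5 in replicate 1 and 29.7 in replicate 2, in an intron, and 4 of its regions were found in both replicates. pop-1, the TCF factor of Wnt signalling, had 39.3 pooled, found in replicate 2 only (24.5). ref-1, a bHLH gene that Notch signalling turns on, had 31.5 pooled, found in replicate 1 only (18.2).

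Among the 12 axis genes pal-1 stood out. pal-1 (WBGene00003912; III, 4804688 to 4809576, minus strand) had its IDR peak in an intron, 4026 bp from the 5' end, with a pooled signal of 63.8 (III, 4805385 to 4805714). Replicate 1 had 38.7 there, at rank 154 of its nuclear regions, and replicate 2 had 21.3, at rank 4139, with summits 4 bp and 0 bp from the pooled one. The place was therefore shared to within a few bases while the rank was not. It lay nearer to the 5' end of metl-5, at 2543 bp. The pal-1 window stood above 98.3% of like-length genes in replicate 1 and above 66.5% in replicate 2. The lowest IDR signal of all was 61.4, so the peaks of pal-1, at 63.8, and odd-2, at 62.4, lay just inside the set. The strongest member regions outside it had 58.1 at odd-2, 56.6 at hlh-1 and 54.8 at unc-86.

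The Hox genes, which pattern the body axis, had no IDR peak. egl-5, the Abdominal-B-type gene of the tail, was highest with 46.8 pooled, 28.2 in replicate 1 and 21.0 in replicate 2. lin-39, the midbody Hox gene, had 42.2 pooled, 21.0 in replicate 1 and 19.6 in replicate 2, at 1040 bp upstream, and 4 of its regions were found in both replicates. The highest regions of ceh-13, mab-5, php-3 and nob-1, with 27.1 to 32.7 pooled, were each found in a single replicate. Of the cofactors, unc-62, the Meis gene, had 40.8 pooled, 21.2 in replicate 1 and 16.1 in replicate 2 in an intron, and 4 regions found in both replicates. The Pbx-type genes ceh-40 (36.9 pooled), ceh-60 (38.4) and ceh-20 (29.0) were lower, and only that of ceh-40 was found in both replicates, with 13.9 in replicate 1 and 16.1 in replicate 2. vab-7, the even-skipped gene, had 37.5 pooled, 14.3 in replicate 1 and 21.0 in replicate 2.

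The gene for ODD-2 itself carried regions on both sides but none in its body. odd-2 (WBGene00003846; X, 6159377 to 6160527, minus strand) had 4 pooled regions in its window, at 2401, 2875, 4306 and 4804 bp upstream, with 58.1, 48.0, 62.4 and 37.5. The one at 4306 bp was an IDR peak, with 31.4 in replicate 1 and 30.9 in replicate 2 and rank 365 in each. The other 3, at 2401, 2875 and 4804 bp, had 30.1, 30.3 and 15.997 in replicate 1 and 23.8, 16.8 and 19.6 in replicate 2. All 4 were thus found in both replicates, and the window stood above 97.8% of like-length genes in replicate 1 and above 97.6% in replicate 2. They belonged to a broad run of regions: from 20000 bp before the gene to 20000 bp after it there were 33 pooled regions (8.02 per 10 kb), of which 4 were IDR peaks, with 32 regions in replicate 1 and 38 in replicate 2. The same span held 5.01 pooled regions per 10 kb at hlh-1 and 3.79 at pal-1, and other genes were not measured in this way. The strain carries extra odd-2 sequence in its transgene, so signal around odd-2 cannot be told apart from signal of the inserted copies. odd-1 (WBGene00003845), its closest relative in the family, had no region in any file.

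**Figure D4:**
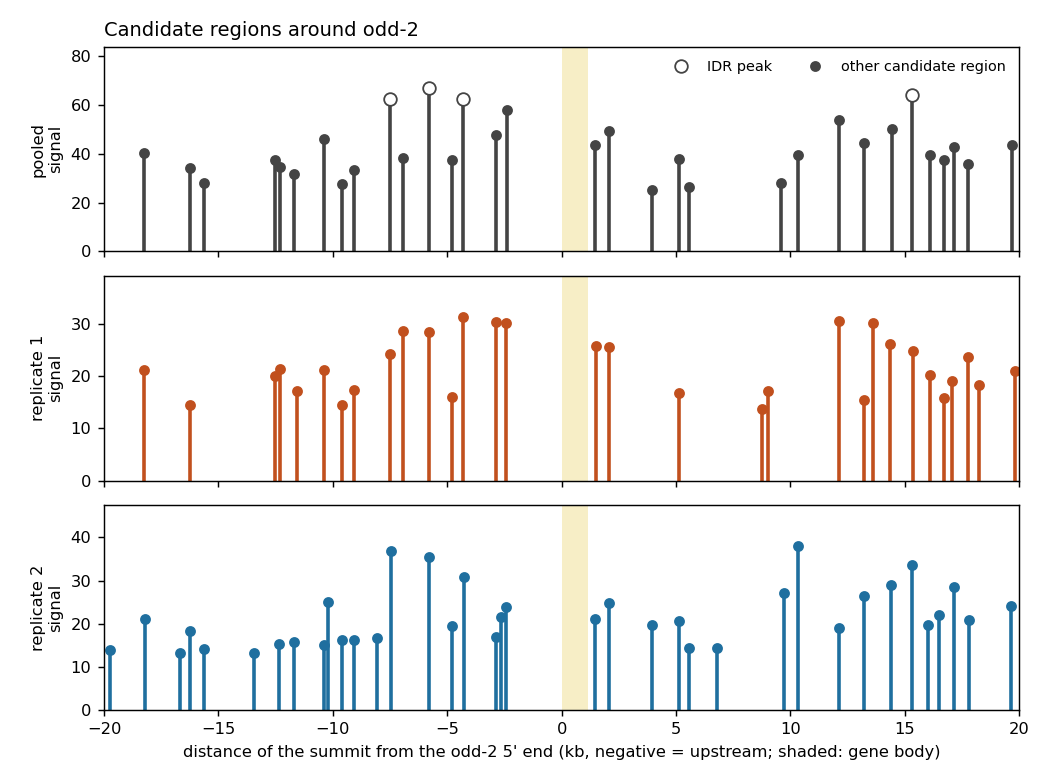
Candidate regions around odd-2 in the pooled file, replicate 1 and replicate 2, each as a line at its summit (x axis, kb from the 5' end; y axis, signal, with its own scale in each panel); open circles mark IDR peaks and the shading the gene body. Regions stand on both sides of the gene in both replicates, while the gene body holds 0 regions in each file.

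The places of the regions were set beside those of all other genes, whatever their length, and since the members' windows hold more intron the shares are a description only. The highest region of a gene was nearest to that gene's own 5' end at 37 of 51 genes (72.5%), against 47.9% of 17439 other genes. It lay within 1000 bp upstream at 5 of 51 (9.80%), against 17.2% of others, in an intron at 12 (23.5%), against 15.9%, in an exon at 7 (13.7%), against 14.8%, and further upstream at 27 (52.9%), against 52.1%. The highest region was found in both replicates at 25 of the 51 genes (49.0%), against 47.6% of others. Introns made up 31.1% of the members' window bases, against 21.0% for other genes, and per 10 kb of intron the members held 3.45 regions, against 3.26. Per 10 kb of exon they held 3.57, or 3.28 without hlh-1, against 2.65. Per 10 kb within 1000 bp upstream they held 3.15, against 3.53, and further upstream 3.01, against 2.93.

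Together the 54 windows held 170 pooled regions, and no region lay in the windows of 2 members. Of these, 57 (33.5%) were found in both replicates, against 30.1% of the 29806 other nuclear regions. Their median signal was 31.4, against 30.6. None of the 170 lay within 200 bp of a gene for tRNA, snoRNA, snRNA or rRNA, against 1.44% of the other regions. Their median GC content within 100 bp of the summit was 35.3%, against 34.3%.

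TGATAA was in 47 of the 170 stretches of 201 bp around member summits (27.6%), against 17.0% of the other nuclear regions. In each replicate's own regions the shares were 23.1% of 173 against 17.0% in replicate 1 and 24.2% of 157 against 17.2% in replicate 2. Stretches 500 bp to either side of the pooled member summits had it in 22.9% on the left, against 18% for other regions, and in 20.6% on the right, against 17.6%. It was in 20.3% of the tiles of 201 bp over the whole windows, against 18.3% for windows of other genes. The same letters in reverse order, AATAGT, were in 11.2% of member stretches, against 14.5%. They were in 14.7% of member stretches 500 bp to the left, against 14.5%, and in 22.9% to the right, against 14.1%. How far such shares vary on 170 stretches was not tested. By role the word was in 5 of 17 gut, 5 of 25 pharynx, 3 of 7 muscle, 4 of 16 epidermis and 5 of 39 neuron group regions. It was in 9 of 19 fate and signalling, 14 of 43 axis and 2 of 4 odd-2 regions. The replicates, shifted stretches, AATAGT and roles were looked at after the share of the pooled regions was seen. CACGTG was in 2.94%, against 3%, CCGCCC in 5.29%, against 3.74%, and ACAGTAGC in 1 region (0.588%), against 0.356%, which was the hlh-1 region shown above.

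Other regulators of the same processes were set beside their own genes of like length. Of 34 further genes, which include the endoderm and mesoderm gene skn-1, the Wnt genes wrm-1, lit-1 and apr-1, the Notch genes lin-12 and glp-1 and homeobox genes such as vab-3, 0 had an IDR peak, against 2.52% of genes of like length. Among them 30 (88.2%) had a pooled region, against 92.7% of genes of like length. One found in both replicates lay at 21 (61.8%), against 60.2%. The windows of the neighbours egl-18 and elt-6 overlap, and regions in both, such as one of 49.6 pooled, count for each. Over those of these regulators with a region, the median highest signal was 42.5, against 36.9. Over all 34 the median density was 3.49 regions per 10 kb, against 2.99. The highest were egl-18, a GATA gene of the epidermis, with 54.9 pooled, 20.8 in replicate 1 and 31.7 in replicate 2, and lit-1, the Nemo-like kinase gene, with 54.2 pooled, 30.3 in replicate 1 and 18.03 in replicate 2. With each replicate's 260 strongest regions in place of the IDR peaks, 2 of the 54 genes (3.70%) had a peak in replicate 1, against 2.35% of genes of like length, and 0 had one in replicate 2, against 2.39%.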

How the data were processed

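The authors deposited, per the file list of the submission, regions in narrowPeak format for replicate 1, replicate 2 and the pooled reads, and an IDR-thresholded set from all of them. The signal (column 7) was computed by the authors from the alignments and a control file. Column 9 of the deposited files, a score with values below 0, was not used. The summit offset (column 10), as deposited, gave the summit position. The aligner and the peak caller are not named in the labels or file headers. The ce10 copies were not used. Sequences were read from the RefSeq copy of WBcel235, the assembly behind ce11, and genes came from Ensembl release 115.

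Mitochondrial regions were left out. Genes of like length were other nuclear protein-coding genes with a window within 20% of a member's, and their values were averaged over the members. Lists are described by counts, shares and medians, with no test, because regions are not replicates and 1 group has no reference. The 54 genes, the other regulators, the words and the alternatives were chosen with earlier results of these data known. Genes named are those with an IDR peak, the 3 highest of each role, odd-1, odd-2, those without a region and those whose highest region is in both replicates; the other members are named so that each is accounted for. Positions per gene were tested on simulated data, where 200 of 200 planted genes were recovered among 19973. Python 3.11.15, numpy 2.4.6, pandas 2.3.3, scipy 1.17.1 and matplotlib 3.10.9 were used.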

Additional observations from a re-analysis of the deposited data

How the results depend on the processing

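The count of 3 genes with an IDR peak (5.56%, against 2.35% of genes of like length) was 2 with 2000 bp upstream (3.70% against 1.68%), with the gene body only (3.70% against 0.603%), without odd-1 and odd-2 (3.85% against 2.37%) and, as a choice made after seeing the data, without hlh-1 (3.77% against 2.35%). It was 0 in a window of 1000 bp upstream to 500 bp downstream of the 5' end (against 0.808%) and 1 with the upper 50% of the IDR peaks by signal (1.85% against 1.13%). Read from a single replicate's strongest regions it ran from 0 (without replicate 1) to 2 (without replicate 2). Without regions near short RNA genes it stayed at 3, while the share of genes of like length was 1.33%. The count of 28 genes with a region found in both replicates was 17 with the gene body only (31.5%, against 30.4% of genes of like length), 6 in the window around the 5' end (11.1% against 15.6%) and 6 with the strongest 5000 regions of each file (11.1% against 7.01%). Summits within 50 bp gave 25 genes (46.3% against 45.8%), and summits within 200 bp gave 34 (63% against 63.1%). An overlap of 50% gave 32 genes (59.3% against 61.1%).

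The median highest signal of 38.1 was 35.5, 33.2 and 32.0 in these 3 windows (2000 bp upstream, body only, around the 5' end), and 43.5 with the strongest 5000 regions. Without replicate 1 or 2 it ran from 18.8 to 21.3, on other scales. The 3.06 regions per 10 kb were 2.95, 2.90 and 0 in the windows (against 2.86, 2.11 and 0 for genes of like length), 0 with the strongest 5000, and 2.78 to 2.85 from single replicates. The median of 3 regions per gene was 2, 1 and 0, then 0, and 2 to 2. The cause of these moves was not tested. Leaving out regions near short RNA genes, or setting the members beside all genes or those within 10% of their length, left the members' own values as they were. No paired analysis was possible because there is only 1 group. Depth is unknown, so weak regions cannot be given a counting error.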
